A study of Mus musculus with 2 samples.

Results

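Cluster 1 of the dural meninges is a group of B-lineage cells marked by Rag1, Arl5c, Rhoh, Tifa and Ly6d. Its members are the cells that carry cluster number 1 in the authors' deposited metadata: 1475 of 12544 annotated cells, of which 829 came from the Il33 KO library and 646 from the het library. Transcripts of single cells were counted in droplets (10x Genomics), and the mice were at postnatal day 14. KO mice carry the Il33 H2B-mCherry allele on both chromosomes, and the het controls carry it on 1, so that each het animal keeps 1 intact copy and no wild-type group was used here. Each genotype is a single library, for which the dura of 5 to 8 mice of each sex was pooled. The sort mixed CD45+CD11b- cells (lymphocytes), gp38+CD31- cells (stroma) and all viable cells in parts of 1, 1 and 2, so the sort sets part of every share of cells. With 1 library per genotype there is no replicate check, no test was made, and intervals cover counting error only. Genotype, pool of animals, sorting and library preparation are confounded here and cannot be told apart.

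In B-cell development a pro-B cell first joins the segments of its immunoglobulin heavy chain gene. A pre-B cell receptor, made of that heavy chain with the surrogate light chains encoded by Igll1, Vpreb1 and Vpreb2, then drives division of large pre-B cells. Small pre-B cells have left the cycle, shut off the surrogate light chain, express CD25 (Il2ra) and use the RAG1 and RAG2 recombinase again to join light chain segments. Cells of these stages are known from the bone marrow and also from the dura, which the skull marrow supplies through bone channels. IL-33 is an alarmin cytokine of stromal and barrier cells, sensed through ST2 (Il1rl1). Immunoglobulin genes are not among the features used here, so heavy and light chain transcripts were not analysed.

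Rag1 encodes the DNA-cutting subunit of the recombinase, and Il2ra encodes the α chain of the IL-2 receptor, the surface marker of small pre-B cells. The 250 bases before their start sites are shown because these are the stage markers whose levels the text below follows from library to library. The sequences are from RefSeq on GRCm38.p6, read 5′ to 3′ on the gene's strand. The Rag1 window lies at chr2:101649533-101649782 on the minus strand, and the Il2ra window at chr2:11642542-11642791 on the plus strand.
Rag1: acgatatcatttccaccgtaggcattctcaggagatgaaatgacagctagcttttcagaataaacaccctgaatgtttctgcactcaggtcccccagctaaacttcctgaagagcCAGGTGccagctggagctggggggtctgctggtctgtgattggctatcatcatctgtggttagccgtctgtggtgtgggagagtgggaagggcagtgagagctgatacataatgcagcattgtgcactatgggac
Il2ra: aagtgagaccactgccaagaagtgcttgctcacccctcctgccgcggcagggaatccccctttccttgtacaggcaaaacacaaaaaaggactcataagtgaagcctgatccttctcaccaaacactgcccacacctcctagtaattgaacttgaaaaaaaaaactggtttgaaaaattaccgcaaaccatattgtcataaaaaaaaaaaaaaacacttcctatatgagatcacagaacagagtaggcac
Capitals mark the E-box CAGGTG, the letters bound by E proteins such as that encoded by Tcf3. Both strands were searched for CAGGTG, for the EBF motif (TCCC and GGGA with 2 bases between them) and for the forkhead motif TGTTTAC. These motifs do not overlap in the windows shown. The E-box occurs in 17.1% of 27025 promoter windows of 250 bases, the EBF motif in 0.788% and the forkhead motif in 3.09%. Of the 5 marker genes and the 11 further genes that lead the cluster (16 in all), 13 have a window in the table. Rag1 and Coq7 hold an E-box, and none of the 13 holds the EBF or the forkhead letters. A match is a description of the letters and not of binding.

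The KO library gave 3647075 UMIs (unique molecular identifiers, counted transcripts) in cluster 1 and the het library 2630406. The median cell held 4178 UMIs and 1591 genes in KO and 3934.5 UMIs and 1554 genes in het. Mitochondrial genes made up a median of 6.94% of UMIs in KO and 6.99% in het. The 2 libraries share 36 of their barcodes, of which 2 are cluster 1 cells, and no barcode is in cluster 1 of both. In stromal cluster 0, where the targeted gene is expressed, Il33 stood at 24.5 CPM (UMIs per 1000000 UMIs of a class and library) in KO and 109.6 in het, a KO/het ratio of 0.224 (0.203 to 0.246). Cluster 1 itself held 6 Il33 UMIs in KO and 7 in het, and 12 and 7 UMIs of Il1rl1 in KO and het. Of the IL-33 pathway list, 6 genes had 20 UMIs or more (Il1rap, Myd88, Irak1, Irak4, Traf6 and Map3k7). The co-receptor gene Il1rap, with 17 UMIs in KO and 7 in het, alone passed 1.5-fold. Over all genes with 20 UMIs or more, 6.9% were at least 1.5-fold higher in KO. Il1rl1 stood at 3.29 CPM in KO and 2.66 in het in cluster 1, with intervals of 1.70 to 5.75 in KO and 1.07 to 5.48 in het that overlap.

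The labelled identity was checked against the 4 other B cell-like clusters of the series, numbered 2, 6, 10 and 16. The authors made the clusters from the expression of these same cells, and which genes they used was not known here. These levels therefore describe the cluster, and no test was made. Arl5c, a member of the ARF-like small GTPase family, stood at 1259.9 CPM in KO and 1300.2 in het in cluster 1. The next highest cluster for Arl5c was 16, with 779.9 in KO and 730.7 in het. Rhoh, a GTPase of blood cells, had 1066 CPM in KO and 1184 in het, against at most 425 in KO and 403 in het elsewhere among these clusters (cluster 10). Both genes were therefore highest in cluster 1 in both libraries.

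The other 3 markers are shared with neighbouring stages. Rag1 had 402 CPM in KO (382 to 423) and 523 in het (496 to 551) in cluster 1, and 567 in KO and 587 in het in cluster 16. It stood at 32.8 CPM or lower in KO and 34.97 or lower in het in clusters 2, 6 and 10. Tifa, an adaptor of TRAF signaling, had 1202 CPM in KO and 1308 in het in cluster 1, against 1380 in KO and 1266 in het in cluster 16. Ly6d, a surface protein that marks commitment to the B lineage, had 3574 CPM in KO and 3759 in het in cluster 1 and was higher in cluster 2, with 4903 in KO and 4648 in het. Stromal cluster 0, which should lack these genes, held 1.44 CPM of Rag1 in KO and 1.64 in het.

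Genes of the earlier stages set cluster 1 apart from cluster 16. Vpreb1 had 52.4 CPM in KO and 77.2 in het in cluster 1, and 6207 in KO and 6236 in het in cluster 16. Dntt, which encodes the terminal transferase that adds bases at heavy chain joins, had 1.92 CPM in KO and 4.94 in het, from 7 and 13 UMIs, and 1441 in KO and 1189 in het in cluster 16. Ms4a1, which encodes the maturing B cell antigen CD20, had 391 CPM in KO and 436 in het in cluster 1, and 2830 in KO and 2833 in het in cluster 2. Mki67, expressed in cycling cells, had 18.9 CPM in KO and 15.2 in het, against 604 and 683 in cluster 6 and 1081 and 994 in cluster 10 (KO and het in each case). Cluster 1 was thus high in Rag1 and Il2ra and low in Vpreb1, Dntt and Mki67, as the name small pre-B describes. Rag2 did not set it apart: at full depth 7.60% of KO and 9.29% of het cells held a Rag2 UMI. In cluster 16 these shares were 38.1% in KO and 35.7% in het. With 2000 UMIs drawn from each cell (shallower cells left out), the Rag2 shares of cluster 1 were 3.39% in KO and 6.18% in het. Those of cluster 10 were then 3.61% in KO and 6.17% in het.

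**Figure D1:**
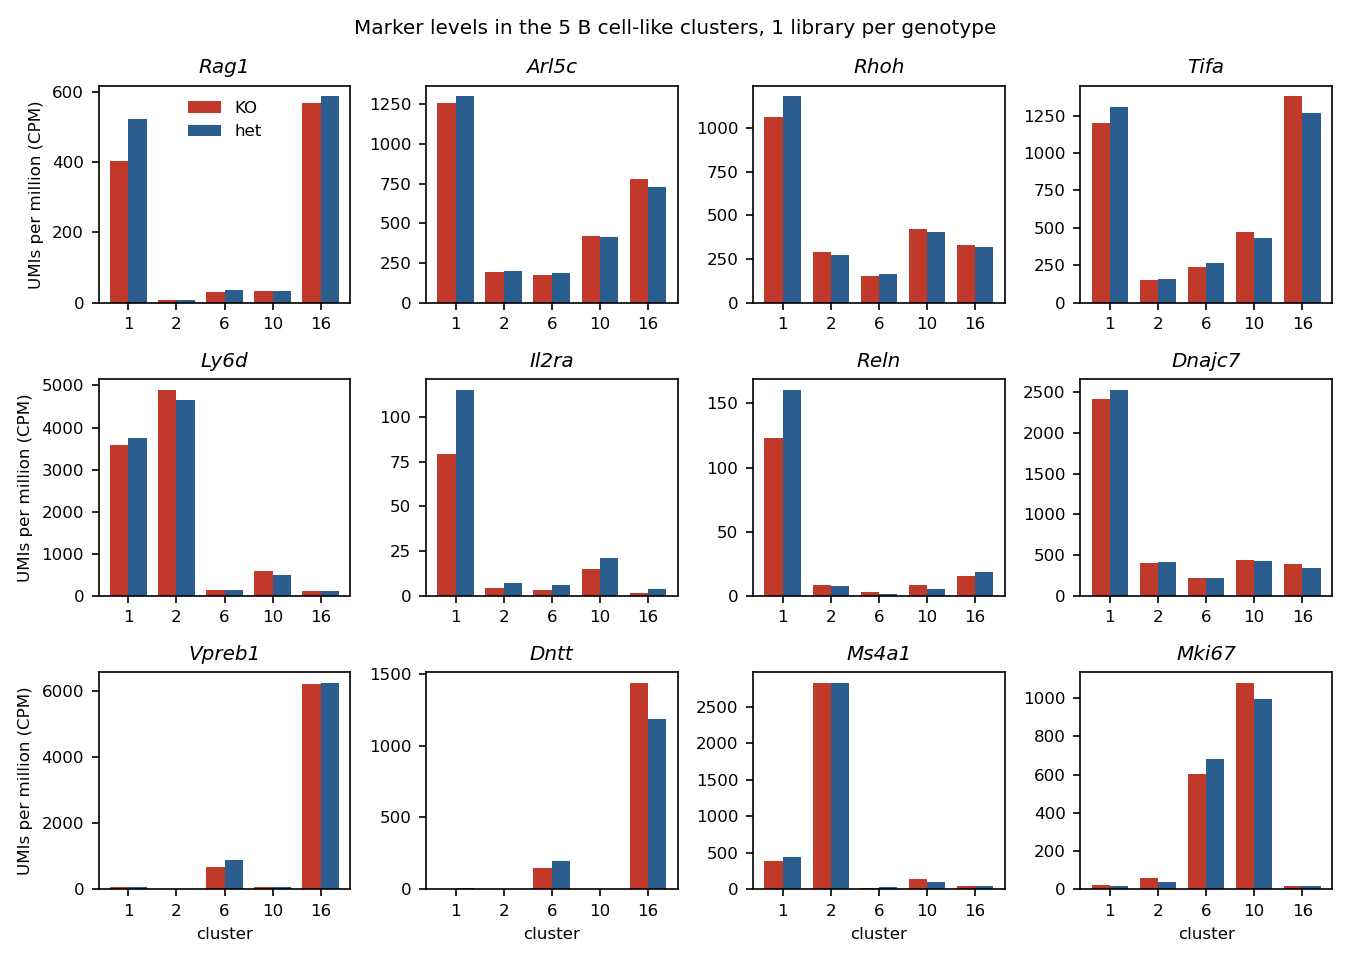
Levels of 12 genes in the B cell-like clusters 1, 2, 6, 10 and 16 (CPM, summed over the cells of each cluster, KO in red left of het in blue, 1 library each). Arl5c, Rhoh, Il2ra, Reln and Dnajc7 are highest in cluster 1, while Rag1 is also high in cluster 16 (567 CPM in KO and 587 in het), Ly6d and Ms4a1 in cluster 2, Vpreb1 and Dntt in cluster 16 and Mki67 in clusters 6 and 10.

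Of 2428 genes with at least 50 CPM in cluster 1 in both libraries, 20 were at least 2-fold above every other B cell-like cluster in both (5 CPM added to each level). The largest gap was that of Reln, which encodes the secreted glycoprotein reelin. Reln had 123 CPM in KO and 161 in het in cluster 1, against at most 15.7 in KO and 18.6 in het in the other B cell-like clusters. Dnajc7, a co-chaperone, had 2420 CPM in KO and 2536 in het, against at most 443 and 432. Il2ra had 79.2 CPM in KO and 115 in het, against at most 15.0 and 20.9 in KO and het. Socs1, an inhibitor of cytokine receptor signaling, had 186 CPM in KO and 213 in het, against at most 43.8 and 48.1. Serinc5, Col5a3, Coq7, Kctd3, Stk3, Atp1b1, Rhoh and Txndc11 complete the first 12 by this measure.

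At the other end, 148 of the 2428 genes were below every other B cell-like cluster in both libraries. Crip1, a LIM-domain protein, had 357 CPM in KO and 338 in het in cluster 1, and its lowest level elsewhere was 990 in KO and 883 in het (cluster 10). Gapdh, a glycolytic enzyme, had 378 CPM in KO and 379.8 in het, against 545 or more in KO and 591 or more in het. Vim, Smc4, Anp32b, Snrpd1, Cd81, Phgdh, Ddost, Mrpl42, Hprt and Arl6ip1 were the others of the lowest 12. Smc4, a condensin subunit, had 55.4 CPM in KO and 59.7 in het, against 965 and 922 in cluster 10.

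The cells of cluster 1 varied among themselves. Over 2367 genes with a mean of at least 0.05 UMIs after each cell was thinned to 1000 UMIs, the median Fano factor (variance over mean, 1 for counting noise alone) was 1.02 in KO and 1.02 in het, and 32 genes reached 1.5 in both libraries. Malat1, a nuclear noncoding RNA, led with 8.17 in KO and 8.10 in het. Ly6d followed with 3.83 in KO and 4.02 in het, Vpreb1 with 4.29 and 3.51, Cd74 with 3.47 and 3.31 and Ms4a1 with 2.95 and 3.15. Per cell, Ly6d ranged from 0 to 88 UMIs in KO with a median of 13, and from 0 to 73 in het with a median of 13. Rag1 ranged from 0 to 18 UMIs in KO and from 0 to 17 in het, with a median of 1 in both.

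Cells with Ms4a1 differed from the others of the cluster. In a separate draw of 1000 UMIs per cell, 172 of 829 KO cells and 141 of 645 het cells held an Ms4a1 UMI, and 1 het cell under 1000 UMIs was left out. Rag1 was present in 24.4% of the Ms4a1-positive and 32.4% of the Ms4a1-negative KO cells, and in 27.7% and 39.7% of the positive and negative het cells. The KO intervals overlap, at 18.2 to 31.5 for positive and 28.9 to 36.1 for negative cells. The het intervals overlap narrowly, at 20.5 to 35.8 for positive and 35.4 to 44.1 for negative cells. Cd74, the invariant chain of MHC class II, went the other way, with 58.1% of Ms4a1-positive and 38.2% of Ms4a1-negative KO cells and 67.4% and 38.3% in het. H2-Aa, a class II chain, was at 5.23% of positive and 6.54% of negative KO cells, and at 10.6% and 5.95% in het. Tifa was present in 49.4% of Ms4a1-positive against 70.5% of Ms4a1-negative KO cells, and in 48.2% against 75.6% of het cells. Ly6d was present in 93.6% of Ms4a1-positive cells of both KO and het, and in 78.7% and 78.2% of the negative cells in KO and het. These shares come from the cells that were clustered and are a description.

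Cluster 1 made up 12.6% of annotated KO cells (11.8 to 13.4, Clopper-Pearson) and 10.9% of annotated het cells (10.1 to 11.7). Of the B cell-like cells it made up 38.2% in KO (36.2 to 40.3) and 33.5% in het (31.4 to 35.6). The KO/het ratio of these shares was 1.16 (1.04 to 1.29) over annotated cells and 1.14 (1.03 to 1.27) over B cell-like cells. Cluster 16, the class of high Vpreb1, held 97 KO and 126 het cells, 4.47% of B cell-like cells in KO and 6.53% in het. Among male-labelled cells the ratio over B cell-like cells was 1.03. Over annotated cells it was 1.25 (1.07 to 1.45) in female-labelled and 1.09 (0.936 to 1.26) in male-labelled cells, a difference that was not tested. Genes that define the cluster differed between the libraries, as given below, so where the cluster's border falls may also differ and the sizes are given as a description.

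The first question between genotypes is which genes differ in cluster 1 between KO and het. Of 9501 genes with 20 UMIs or more over both libraries, 1076 (11.3%) differed at least 1.5-fold, 656 higher in KO (6.9%) and 420 lower (4.42%). Among the 5739 genes with 100 UMIs or more the share was 2.6%, with 94 higher and 55 lower in KO. The whole interval lay past 1.5-fold for 37 genes (0.389%), 30 higher and 7 lower in KO. The median log2 ratio of all 9501 genes was -0.01. Among female-labelled cells alone 47.0% of the genes past the fold were higher in KO, against 61.0% over all cells.

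Of the 14 lists of gene function plotted by KO/het ratio, the extracellular matrix list had the highest median. The marker lists of NK cells, T cells, mast cells, glia and arachnoid barrier had higher medians, each over 3 genes or fewer with 20 UMIs. All 13 matrix genes had 20 UMIs or more, 12 were higher in KO, 7 of them past 1.5-fold, and the median log2 ratio was 0.64, beside -0.01 over all genes and a background of 6.9% past the fold in that direction. The median was 0.19 in female-labelled and 1.18 in male-labelled cells, a difference that was not tested. Across the other B cell-like clusters it was 0.73 in cluster 2, 0.26 in cluster 6 and 0.82 in cluster 16, but -1.16 in cluster 10, where 12 of 12 measured members were past the fold and lower in KO. Igfbp5, which encodes a binding protein of insulin-like growth factors, stood at 263 CPM in KO (246 to 280) and 130.4 in het (117 to 145), a ratio of 2.01 (1.78 to 2.29). Igf2, an insulin-like growth factor, had 248 CPM in KO and 139.9 in het, a ratio of 1.78 (1.57 to 2.01). Col1a1, a chain of type I collagen, had 804 CPM in KO and 607 in het, a ratio of 1.32 (1.25 to 1.41), which was 1.02 in female-labelled and 1.83 in male-labelled cells. Dcn, which encodes the proteoglycan decorin, had 131 CPM in KO and 79.5 in het. Col5a1, another collagen chain, was the 1 member lower in KO, with 39 UMIs in KO and 34 in het.

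The matrix transcripts were spread thinly over nearly all droplets of the cluster. Every KO cell and all but 2 het cells held at least 1 UMI of the 13 genes, with a median of 11 per cell in KO (quartiles 8 and 14) and 6 in het (quartiles 4 and 8). The medians were also 11 in KO and 6 in het in cluster 2, 14 and 8 in cluster 6, 12 and 7 in cluster 10, and 10 and 7 in cluster 16 (KO and het in each). Female-labelled and male-labelled cells of cluster 1 had the same medians, 11 in KO and 6 in het. In cluster 10 the KO median was higher although the summed level was lower, at 1311 CPM in KO and 3171 in het. Single cells moved the summed levels: the highest cell held 455 of the matrix UMIs in KO and 428 in het. Without that cell the summed level was 2735 CPM in KO and 1740.0 in het, and with it 2860 in KO and 1903 in het. The highest het cell was female-labelled and the highest KO cell male-labelled. Without the highest cell of each, the summed level was 2577 CPM in KO and 1920.2 in het for female-labelled and 2858 in KO and 1527 in het for male-labelled cells. Over all barcodes of the libraries the 13 genes made up 27275 CPM in KO and 24926 in het. In cluster 0, which expresses them at far higher levels, Col1a1 had a ratio of 0.96, Igf2 of 1.01 and Igfbp5 of 1.23. Free RNA in the droplets is a known source of such UMIs, and its part in the shift was not tested.

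**Figure D2:**
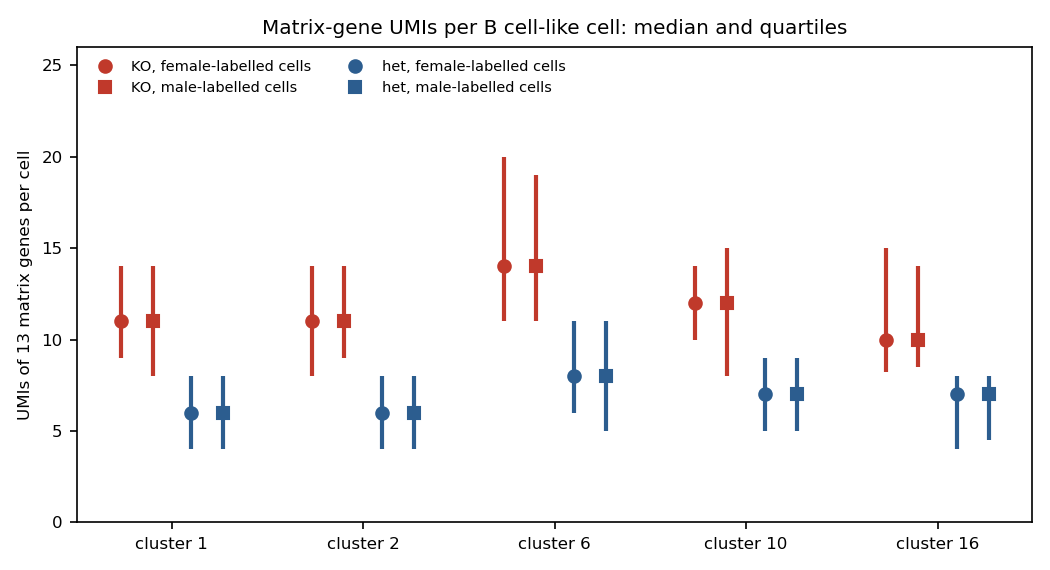
UMIs of the 13 matrix genes per cell in the B cell-like clusters (points are medians, bars run from the lower to the upper quartile, KO in red left of het in blue, circles for female-labelled and squares for male-labelled cells). In each of the 5 clusters both KO medians lie above both het medians, and in cluster 1 they are 11 in KO and 6 in het for both labels.

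Most genes named as higher in KO stood higher in stromal cluster 0 than in cluster 1. The naming rule took genes with 100 UMIs or more that were seen in at least 10% of KO or of het cells, ranked by the bound of the interval nearest 1. Of 4369 such genes, 50 were at least 1.5-fold higher and 32 at least 1.5-fold lower in KO. Spp1, the secreted phosphoprotein osteopontin, came first with 70.2 CPM in KO and 18.6 in het, a ratio of 3.77 (2.77 to 5.23). A single KO cell held 66 of its 256 KO UMIs, and without the highest cell of each library the ratio was 2.92. Without the 10% of cells of highest Scrublet score it was 2.44. In cluster 2 Spp1 went the other way, with 28.2 CPM in KO and 359 in het. S100a8, a calcium-binding protein of neutrophils, had 38.9 CPM in KO and 15.6 in het, a ratio of 2.50 (1.75 to 3.63), with at most 3 UMIs in any KO cell. Fxyd5, Igf1, Fstl1, Maf, Igfbp4, Nfic, Ogn and Bgn filled the list beside Igfbp5 and Igf2, with ratios from 1.84 (Igfbp4) to 2.21 (Nfic). Of these 12 genes, 10 stood higher in stromal cluster 0 than in cluster 1 in both libraries, and Spp1 and S100a8 did so in het alone.

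The 11 genes named here as lower in KO had ratios between 0.553 (Irgq) and 0.637 (Cpsf7). Lef1, a transcription factor of lymphoid precursors that cluster 16 carries at 543 CPM in KO and 483 in het, had 20.02 CPM in KO and 34.98 in het, a ratio of 0.572 (0.415 to 0.787). Usp24 and Senp1 encode proteases of ubiquitin and SUMO, and Nup210 and Nup54 are nucleoporins. Nup210 had 39.5 CPM in KO and 62.3 in het, a ratio of 0.633 (0.503 to 0.797). Ylpm1, Irgq, Cpsf7, Rapgef1, Fam134c and Sptlc2 complete these 11. None of these 11 intervals lies wholly past 1.5-fold.

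**Figure D3:**
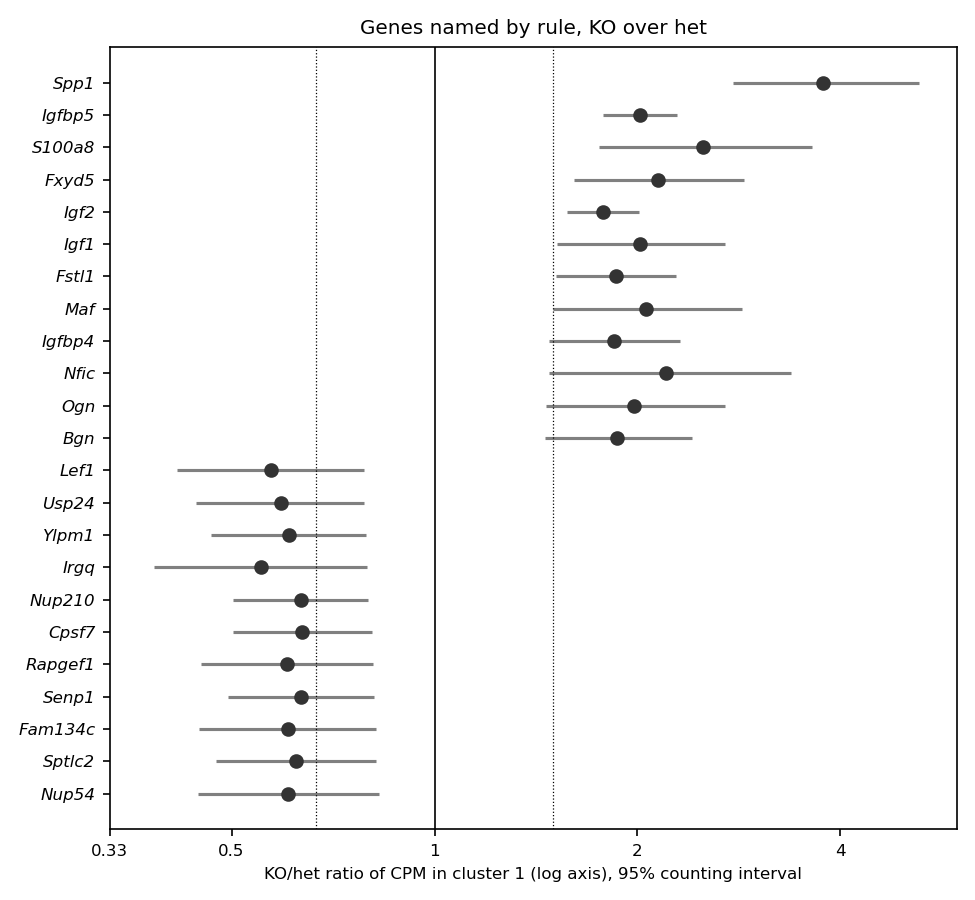
KO/het ratio of CPM in cluster 1 on a log axis for the 23 named genes (points) with 95% counting intervals (lines), dotted lines at 1.5-fold. Spp1 reaches 3.77 and Irgq 0.553, and the intervals of the genes lower in KO all cross the lower dotted line.

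Genes of recombination showed no common direction between KO and het. Of 14 recombination genes with 20 UMIs or more, 6 were higher and 8 lower in KO, with a median log2 ratio of -0.07. In each direction 1 was past the fold (6.9% higher and 4.42% lower over all genes). Rag1 had a ratio of 0.769 (0.714 to 0.828), lower in KO but short of 1.5-fold. The ratio was 0.773 (0.693 to 0.861) among female-labelled and 0.760 (0.686 to 0.842) among male-labelled cells. In cluster 16, where Rag1 is higher still, the ratio was 0.966 (0.840 to 1.11). Whether the ratios of clusters 1 and 16 differ was not tested. Rag2, the partner subunit, had 70 UMIs in KO and 68 in het, a ratio of 0.742 (0.524 to 1.05). The KO/het ratio of the shares of cluster 1 cells with Rag2 was 0.818 (0.565 to 1.19) unthinned. With cells thinned it was 0.240 (0.057 to 0.776) at 500 UMIs, 0.369 (0.147 to 0.855) at 1000 and 0.548 (0.325 to 0.914) at 2000. Of the end-joining genes, Xrcc6, which encodes the DNA-end binding protein Ku70, had 307 CPM in KO and 362 in het, a ratio of 0.848 (0.777 to 0.925). Polm, a polymerase that acts at light chain joins, had 87.5 CPM in KO and 104 in het, a ratio of 0.840 (0.712 to 0.990). Lig4, the ligase of end joining, had 55.4 CPM in KO and 60.4 in het, with an interval that includes 1. Hmgb1 was among the 6 members higher in KO, with a ratio of 1.06. That ratio was 0.974 in female-labelled and 1.16 in male-labelled cells.

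Members of the pre-B receptor and its signaling chain were mostly lower in KO by small amounts. Of 14 with 20 UMIs or more, 13 were lower in KO, beside 4978 of all 9501 genes (52.4%). Of these 14, 0 were past the fold (4.42% lower over all genes), and the median log2 ratio was -0.15. The list median was -0.03 in cluster 2, -0.20 in cluster 6, -0.02 in cluster 10 and -0.03 in cluster 16. Vpreb1 had 52.4 CPM in KO (45.2 to 60.4) and 77.2 in het (66.9 to 88.6), a ratio of 0.679 (0.554 to 0.831). Its UMIs lay in 54 KO and 56 het cells, with up to 38 in 1 KO cell. Igll1 had 67 UMIs in KO and 60 in het, a ratio of 0.805 (0.560 to 1.16). Without cells that held a Mki67 or Top2a UMI the ratio of Igll1 was 1.19, higher in KO, and that of Vpreb1 was 0.821. Syk, the kinase that carries the signal of the receptor, had 458 CPM in KO (436 to 480) and 569 in het (540.3 to 598), a ratio of 0.805 (0.750 to 0.863). Blnk, the adaptor that Syk phosphorylates, had 412 CPM in KO and 468 in het. The signaling chains Cd79a and Cd79b had ratios of 0.917 (0.893 to 0.942) and 0.928 (0.905 to 0.951). Ptpn6, an inhibitory phosphatase, was the 1 member higher in KO, with 152 CPM in KO and 141 in het. Of the pro-B and large pre-B stage list, which shares Vpreb1, Igll1, Dntt and Lef1 with the lists above, 2 of 10 genes were higher and 8 lower in KO, with a median log2 ratio of -0.23. Dntt, Flt3 and Lef1 were past the fold and lower (4.42% over all genes), Dntt and Flt3 from 21 UMIs or fewer each. Vpreb3 had 4058 CPM in KO and 4104 in het, a ratio of 0.989.

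The genes that lead the cluster were likewise lower in KO without passing 1.5-fold. All 12 leading genes were lower in KO, 10 with an interval wholly below 1. Of the 5739 genes with 100 UMIs or more, 3197 (55.7%) were lower in KO and 398 had an interval wholly below 1. Among female-labelled cells 10 of the 12 were lower in KO, and among male-labelled cells 12. Il2ra had 289 UMIs in KO and 303 in het, a ratio of 0.688 (0.583 to 0.811). Reln had a ratio of 0.764 (0.667 to 0.874), Stk3, a Hippo pathway kinase, of 0.792 (0.695 to 0.902), and Col5a3 of 0.812 (0.709 to 0.931). The smallest differences were those of Dnajc7 with a ratio of 0.954, Atp1b1 with 0.948 and Coq7 with 0.941. Of the 12 genes lowest in cluster 1, 6 were lower in KO. The genes were picked for their level in cluster 1, which the clustering may have used.

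IL-7 receptor signaling, which supports early B cells and is reduced at the small pre-B stage, split evenly. Of 14 genes, 7 were higher and 7 lower in KO, 3 of them past the fold and higher (6.9% over all genes), with a median log2 ratio of -0.02. Il7r, the receptor chain, had 272 CPM in KO and 271 in het. Socs1 had a ratio of 0.875 (0.781 to 0.980) and Pim1, a survival kinase, of 0.960 (0.901 to 1.02). Socs3, another inhibitor of cytokine signaling, had 35.1 CPM in KO and 22.4 in het, a ratio of 1.56 (1.14 to 2.17). In stromal cluster 0 Socs3 stood at 248 CPM in KO and 313 in het.

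Most transcription factors of the B lineage differed little. Of 24 measured, 10 were higher and 14 lower in KO, with a median log2 ratio of -0.04. Lef1 alone passed 1.5-fold, lower in KO, a share near the 4.42% over all genes. Ebf1, which specifies the lineage, had 4510 CPM in KO and 4364 in het, a ratio of 1.03 (1.01 to 1.06). Pax5, which keeps cells committed, had 263 CPM in KO and 307 in het, a ratio of 0.858 (0.780 to 0.943). Foxp1, an activator of Rag genes, had 926 CPM in KO and 1093 in het, a ratio of 0.847 (0.806 to 0.891). Sox4 and Klf2 were higher in KO, at 882 CPM in KO and 802 in het for Sox4 (ratio 1.10, 1.04 to 1.16) and 1235 CPM in KO and 1095 in het for Klf2 (ratio 1.13, 1.08 to 1.18). Klf2, a factor of quiescence and trafficking, had a ratio of 0.955 among female-labelled and 1.37 among male-labelled cells. Irf4, which helps open light chain genes, had 253 CPM in KO and 226 in het.

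Few genes of homing differed. Of 13 homing and adhesion genes, 3 were higher and 10 lower in KO, beside 52.4% lower over all genes. Of these 13, 0 were past the fold (6.9% higher and 4.42% lower over all genes). Cxcr4, the receptor for the niche chemokine CXCL12, had 551 CPM in KO and 546 in het, a ratio of 1.01 (0.942 to 1.08). S1pr4, a sphingosine phosphate receptor, had 89.7 CPM in KO and 123 in het, a ratio of 0.730 (0.624 to 0.854). Of 11 measured receptors for cytokines, 3 were higher and 8 lower in KO, with a median log2 ratio of -0.18. Past the fold was 1 of them, lower in KO (4.42% over all genes). Il10ra had 54.0 CPM in KO and 73.8 in het, and Ifngr1 had 79.5 in KO and 63.1 in het. The lists of MHC class I and II, heat shock, NF-kB target, glycolysis, oxidative phosphorylation, apoptosis and quiescence genes had median log2 ratios between -0.11 and 0.05. The MHC class II median was 0.37 in female-labelled and -0.30 in male-labelled cells. That of heat shock genes was -0.24 in female-labelled and 0.29 in male-labelled cells. These differences between the labels were not tested.

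Interferon-induced genes were lower in KO in each of the 8 members with 20 UMIs or more, with a median log2 ratio of -0.34 and 2 of them past 1.5-fold (background 4.42%). Ifi27l2a, the only abundant member, had 251 CPM in KO and 295 in het, a ratio of 0.851 (0.773 to 0.938). Stat2, a signal transducer of the interferon receptor, had 37 UMIs in KO and 45 in het, a ratio of 0.593 (0.373 to 0.937). Rtp4 had 5 UMIs in KO and 15 in het. The 7 other members of the list had fewer than 20 UMIs, and of these Ifit1, Ifit2, Irf7 and Oasl2 had more UMIs in KO than in het. The medians were -0.13 in cluster 2, -0.23 in cluster 6, -1.50 in cluster 10 and 0.02 in cluster 16.

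Immediate early genes, which cells switch on within minutes of a stimulus and also during tissue digestion, tended to be higher in KO. Of 17 measured, 14 were higher in KO and 1 passed 1.5-fold, a share near the 6.9% over all genes, with a median log2 ratio of 0.19. That gene was Atf3, a stress transcription factor, with 39.2 CPM in KO and 15.2 in het, a ratio of 2.58 (1.80 to 3.76). Junb had 613 CPM in KO and 463 in het, a ratio of 1.32 (1.23 to 1.42), and Fos had 133 in KO and 103 in het. The list median was -0.013 in female-labelled and 0.64 in male-labelled cells, and Junb had ratios of 1.01 and 1.84 in female-labelled and male-labelled cells. The difference between the labels was not tested. In cluster 2 the list median was 0.20 and in cluster 10 it was -0.34. The part of digestion or of free RNA in these values was not tested.

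**Figure D4:**
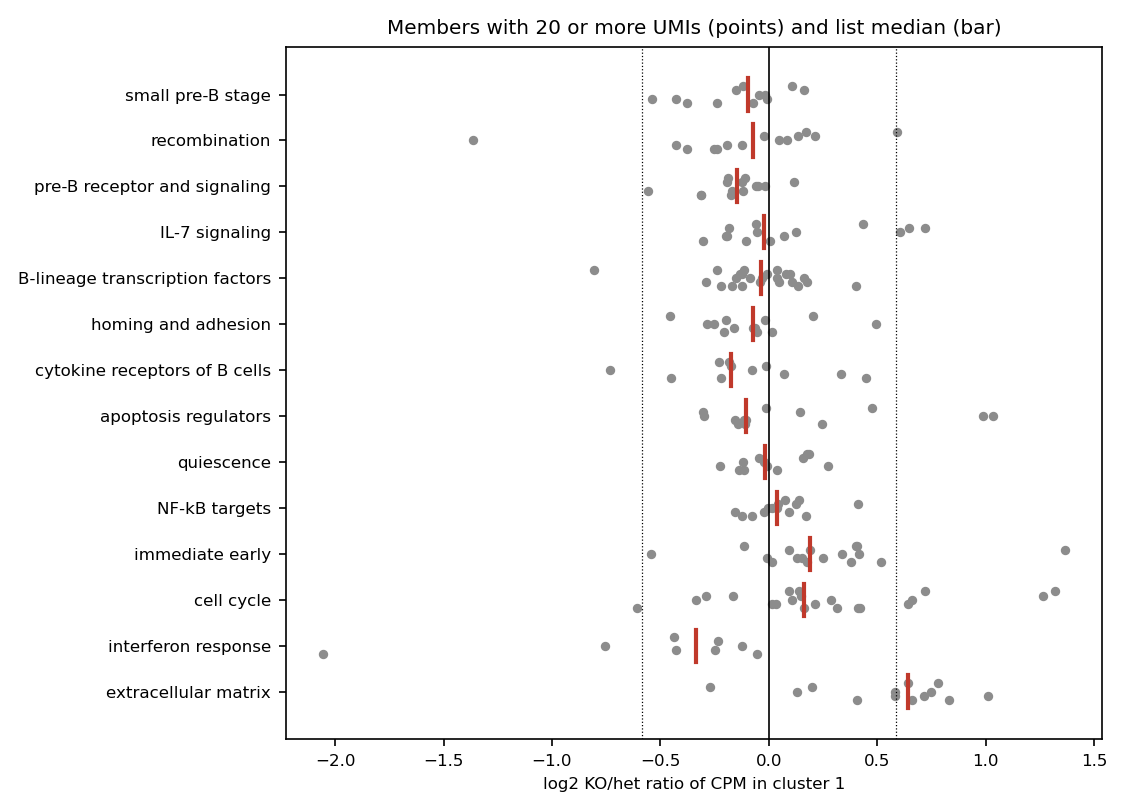
log2 KO/het ratio in cluster 1 for the members of 14 gene lists with 20 UMIs or more (grey points) and the list median (red bar), with dotted lines at 1.5-fold. The extracellular matrix list sits furthest to the right with a median of 0.64 and the interferon list furthest to the left with -0.34, while the small pre-B, recombination, pre-B receptor, IL-7 and transcription factor lists have medians between -0.15 and -0.02.

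Cell cycle genes were scarce in both libraries. Of 21 with 20 UMIs or more, 17 were higher in KO and 5 of them past the fold, beside 4523 of 9501 genes higher and 6.9% past the fold over all genes. The median log2 ratio was 0.16, with 0.026 in female-labelled and 0.46 in male-labelled cells. Birc5, a regulator of mitosis, had 40 UMIs in KO and 12 in het, a ratio of 2.40 (1.24 to 5.03), and Cdc20, an activator of the anaphase complex, had 38 in KO and 11 in het, a ratio of 2.49. Without cells that held a Mki67 or Top2a UMI the ratio was 1.34 for Birc5, short of the fold, and 1.65 for Cdc20. Without the 10% of cells of highest Scrublet score it was 1.53 for Birc5 and 1.46 for Cdc20, the second short of the fold. Mki67 was present in 3.26% of KO cells and 4.49% of het cells at full depth. The authors' phase call put 57 KO cells (6.88%) and 8 het cells (1.24%) in G2M. Of those cells, 14 KO cells (24.6%) and 5 het cells (62.5%) held a Mki67 or Top2a UMI. Over 13 mitotic genes, G2M-called cells held 4.30 UMIs per cell in KO and 7.00 in het, and G1-called cells held 0.225 in KO and 0.220 in het. The authors' G2M score had a median of -0.12 in KO and -0.29 in het in cluster 1, and of -0.16 in KO and -0.40 in het in cluster 16. After thinning to 1000 UMIs, 3 or more cell cycle genes were present in 4.83% of KO cells (3.47 to 6.51) and 4.34% of het cells (2.90 to 6.21). In cluster 0 these shares were 5.63% in KO and 6.504% in het, so the share in cluster 1 did not exceed that of cluster 0. Cluster 0 is no class free of cycling, since 4.94% of its KO and 7.52% of its het cells held a Mki67 UMI at full depth. No cycling is read from the phase calls alone.

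Shares of cells with a UMI were compared after each cell was thinned to 1000 UMIs. Rag1 was present in 31.1% of KO cells (27.98 to 34.4) and 38.1% of het cells (34.4 to 42.01), against 0.173% of KO and 0.407% of het cells of cluster 0, which should lack it. Il2ra was present in 7.72% of KO cells (5.996 to 9.75) and 10.5% of het cells (8.28 to 13.2), intervals that overlap. The KO/het ratio of the Il2ra shares was 1.06 (0.614 to 1.85) at 500 UMIs per cell and 0.732 (0.512 to 1.05) at 1000. At 2000 UMIs per cell it was 0.701 (0.537 to 0.914). Vpreb1 was present in 2.65% of KO and 4.81% of het cells. Lef1 was present in 2.90% of KO and 2.95% of het cells, a ratio of 0.983 that does not show the lower KO level. At other depths the KO/het ratio of the Lef1 shares was lower. It was 0.520 (0.152 to 1.63) at 500 UMIs, 0.611 (0.372 to 0.998) at 2000 UMIs and 0.684 (0.483 to 0.968) unthinned. Unthinned, at median depths of 4178 UMIs in KO and 3934.5 in het, the Rag1 shares were 63.7% in KO and 68.9% in het and the Il2ra shares 25.9% and 32.7%. Surrogate light chain or Dntt UMIs (Igll1, Vpreb1, Vpreb2 or Dntt) were present in 3.38% of KO cells (2.26 to 4.84) and 6.36% of het cells (4.60 to 8.52). Ms4a1 was present in 19.8% of KO and 22.6% of het cells, and Vpreb3 in 96.5% and 96.3%. At least 3 of the 5 marker genes were present in 68.5% of KO cells (65.2 to 71.7) and 74.3% of het cells (70.7 to 77.6).

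**Figure D5:**
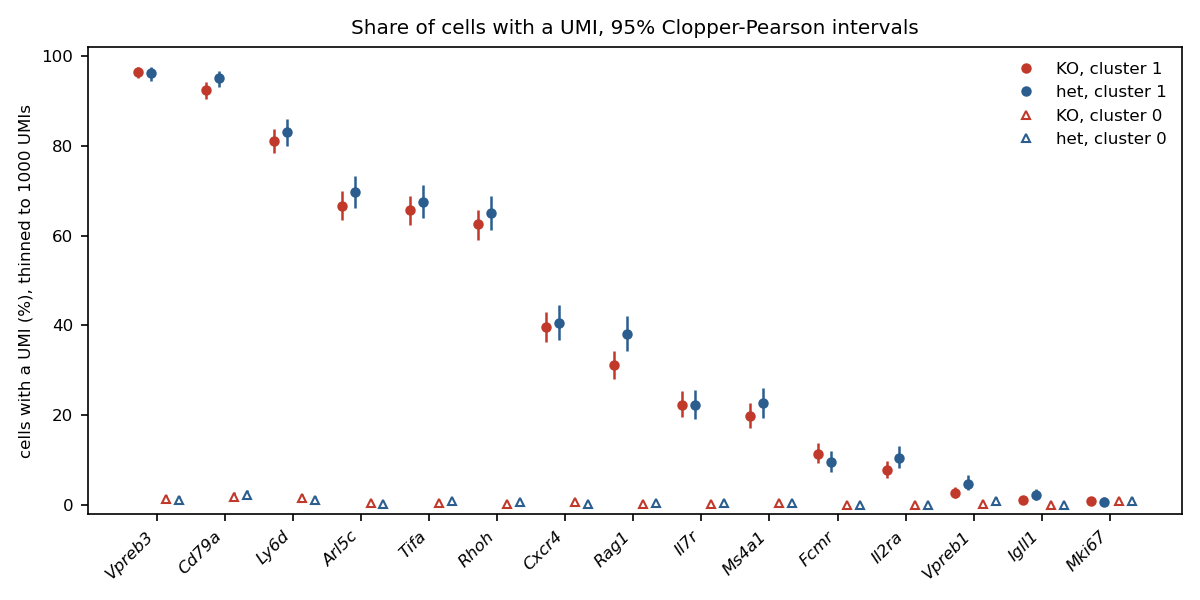
Percent of cells with a UMI of each gene after thinning to 1000 UMIs, in cluster 1 (filled circles) and in stromal cluster 0 (open triangles), KO in red left of het in blue, with 95% Clopper-Pearson intervals. Rag1 stands at 31.1% in KO and 38.1% in het in cluster 1 and below 1% in cluster 0.

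Markers of most other cell types were present at low levels, and those of fibroblasts and osteolineage cells at higher levels. The 9 fibroblast and osteolineage markers summed to 2256 CPM in KO and 1559 in het, with 9 of 9 higher in KO and 4 past the fold (6.9% over all genes). The 8 neutrophil markers summed to 107 CPM in KO and 63.1 in het, and of the 5 with 20 UMIs or more S100a8 alone passed the fold. Hemoglobin and the other erythroid markers summed to 362 CPM in KO and 364 in het. T and NK cell genes came from few droplets: 41 of 43 KO UMIs of Gzma and 20 of 23 of Cd3g lay in 1 cell each, and het held 1 and 0. Of the 350 KO UMIs of Mbp, a myelin gene, 272 lay in 1 cell, and of the 107 het UMIs 41 did. The summed levels of the other marker lists differed by less than 1.5-fold, except the T and NK cell lists named above, mast cell and basophil markers with 37.6 CPM in KO and 21.3 in het and glia and neuron markers with 140.1 in KO and 88.2 in het. The part of these cells or their RNA in the ratios above was not tested.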

How the data were processed

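Data were UMI counts of 2 libraries, 1 per genotype, which the authors counted using Cell Ranger 3.0.2 (mm10), per the submitters' processing notes. No gene annotation or counting setting is named there. Levels come from the authors' deposited table of UMI counts of 19347 genes in 12544 annotated cells. In cluster 1, 24 values in KO and 18 in het differ from the matrices. The deposited metadata gave each cell's cluster, sex label and phase, its percent of mitochondrial and of hemoglobin UMIs, and the authors' S and G2M scores. Judged by their values, the annotated cells were limited to between 500 and 7500 genes, up to 15% mitochondrial and less than 0.1% hemoglobin UMIs. A cell is labelled female exactly where it holds an Xist UMI (12544 of 12544 cells), so shallow depth or free Xist RNA can make a label wrong. In cluster 1, Y-linked UMIs were held by 9.73% of female-labelled KO and 6.69% of female-labelled het cells. How the authors treated doublets is not stated. Scrublet's automatic threshold marked 0% of cells, so the caller did not work, and its score served only to rank cells.

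For each cluster and library, UMIs were added over its cells and scaled to their total (CPM). Intervals are exact 95% intervals (Poisson for levels, Clopper-Pearson for shares, conditional binomial for ratios). They cover counting error only and are too narrow for genes that vary between cells. A gene was described where it had 20 UMIs over both libraries, and "past the fold" means a ratio at least 1.5-fold from 1. Named genes needed 100 UMIs and detection in 10% of KO or of het cells, the first 12 in each direction by the interval bound nearest 1. The naming passed over Xist, Y-linked, predicted, hemoglobin, ribosomal protein and mitochondrial genes. 1 gene that this rule takes is not reported here. Members of 37 gene lists could also be named. The cluster, its markers and the lists were chosen with earlier results of these data known. Ratios were tested on simulated Poisson counts. Analyses used Python 3.11.15, numpy 2.4.6, scipy 1.17.1 and scanpy 1.11.5. Alternatives were other minimums, scalings and folds, UMIs from the matrices, subsets of cells by depth, Scrublet score, cycling genes or sex label, and other thinning depths.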

Additional observations from a re-analysis of the deposited data

Results flagged for a closer look

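Ms4a1, Cxcr4 and Cd74 moved in opposite directions in female-labelled and male-labelled cells of cluster 1, with both intervals on their own side of 1. Ms4a1 had a KO/het ratio of 1.14 (1.02 to 1.28) in female-labelled and 0.714 (0.640 to 0.796) in male-labelled cells. Cd74 had 1.29 (1.21 to 1.38) and 0.832 (0.780 to 0.888) in female-labelled and male-labelled cells. Cxcr4 had 0.910 (0.829 to 0.999) and 1.14 (1.03 to 1.26) in female-labelled and male-labelled cells. The difference between the labels was not tested, and the labels rest on an Xist UMI. Counts of Ms4a1 and Cd74 vary between cells beyond counting error, with Fano factors of 2.95 and 3.47 in KO and 3.15 and 3.31 in het.

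Barcodes outside the annotated cells also carried the cluster's genes. With at least 4 of the 5 markers and all of Vpreb3, Cd79a, Cd79b and Ebf1, there were 148 such barcodes in KO and 145 in het. In cluster 1 the same criterion was met by 88.7% of KO and 89.5% of het cells, and it was also met by 559 KO and 537 het cells of the other B cell-like clusters. Of the 148 KO and 145 het barcodes, 90 in KO and 100 in het were over the hemoglobin limit of 0.1%, and 54 in KO and 43 in het were over the mitochondrial limit of 15%.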

How the results depend on the processing

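The count of 1076 genes past 1.5-fold became 2937 with a minimum of 1 UMI, 149 with a minimum of 100 UMIs and 291 with a fold of 2, as fewer or more genes qualify by construction. It lay between 728 and 1202 under the other alternatives. Of these, leaving out genes 5 times higher in clusters 0, 4, 5 or 7 (an alternative chosen after seeing the data) gave 728, with 48.2% higher in KO against 61.0% over all genes. In female-labelled cells the list medians (log2) were 0.026 for cell cycle, -0.013 for immediate early and 0.19 for matrix genes. In male-labelled cells they were 0.46, 0.64 and 1.18 in the same order, and the share ratio over B cell-like cells was 1.03. The median of 3 glia and neuron markers, 1.24, became -0.47 with a minimum of 1 UMI, -0.63 without the 10% of cells of highest Scrublet score and -1.22 in male-labelled cells. That of the arachnoid barrier markers, 0.72, became -0.12 without genes 5 times higher in clusters 0, 4, 5 or 7. The causes were not tested. The ratio of Rag1 stayed between 0.760 and 0.783 and that of Il2ra between 0.642 and 0.735 under the alternatives run on single genes. The share of cells with Il2ra, whose KO/het ratio was 0.732 at 1000 UMIs per cell, had a ratio of 1.06 (0.614 to 1.85) at 500 UMIs. At 2000 UMIs that ratio was 0.701 (0.537 to 0.914). Of 848 alternative values of single-gene ratios 785 lay inside the gene's own interval and 63 outside it. The matrix list has no value without those stromal genes, since all of its members are among them.

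No paired analysis was possible because each genotype is 1 library. For the same reason no library was left out in turn. Depth limits genes under about 20 UMIs in cluster 1.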
